A study of Bos taurus with 16 samples.

Results

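Each of 5 genes was read at a high level in the blood of some dairy cattle and at a level at least 9.18 times lower in the others, with no animal of the 15 compared in between. They are ENSBTAG00000006383, ENSBTAG00000021565, ENSBTAG00000035959, ENSBTAG00000037605 and ENSBTAG00000047547, out of 24616 Ensembl gene identifiers counted. They were chosen by their measured levels, in CPM (counts scaled to a total of 1000000 per library, with TMM factors so that libraries can be compared): an upper and a lower set of at least 3 libraries each had to differ at least 8-fold at their nearest points. The gap itself is therefore described here without a test. Another 6 genes, with few reads, also met this limit and are given only in comparison. The library of high-yield animal 4 was left out of the choice and is given apart. Although the 5 genes may be thought of as switched on in some animals only, no lower set held a library at 0, and "upper" and "lower" are used below in place of "on" and "off".

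The series compared whole blood of dairy cattle in 2 groups, 8 animals of high milk protein yield and 8 of low, each animal giving 1 RNA sequencing library. The series' design text names the groups by another trait, given only as an abbreviation, and the sample labels are followed here. The labels name no treatment, and the sources used here do not give breed, age, sire, lactation stage or blood cell counts. Because nothing but the numbered titles says that the libraries came from separate animals, p-values measure the spread between these libraries.

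Whole blood RNA comes from the various kinds of blood cell together, and a count sums over them. Fewer cells of a type and less RNA per cell therefore cannot be told apart. For most genes, the transcript level varies gradually from animal to animal. Genes whose levels fall into separate classes are known as well, and in mammals they include genes absent from some chromosomes and genes with alleles of very unequal expression. This is background only: no genotype or copy number was used here. The deposited identifiers come without gene names. The name table at hand, with 37063 genes of a later bovine assembly, lists 0 Ensembl identifiers, so none could be matched. The roles and sequences of the 5 genes are therefore not given, nor could the blood cell markers be read.

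Totals in genes ran from 23727368 to 39793845 counts per library. Of the 16 libraries, that of high-yield animal 4 stood apart, with 12197 genes holding a count against 15494 to 16217 in the other 15. The 15 also parted by the share of alignments that were not unique, which was 4.0% to 4.81% in 7 libraries (high-yield animals 3, 6 and 7, low-yield animals 2, 5, 7 and 8) and 7.83% to 8.81% in the other 8. No label names a batch that goes with this share, and high-yield animal 4 lay between, at 6.08%.

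**Figure D1:**
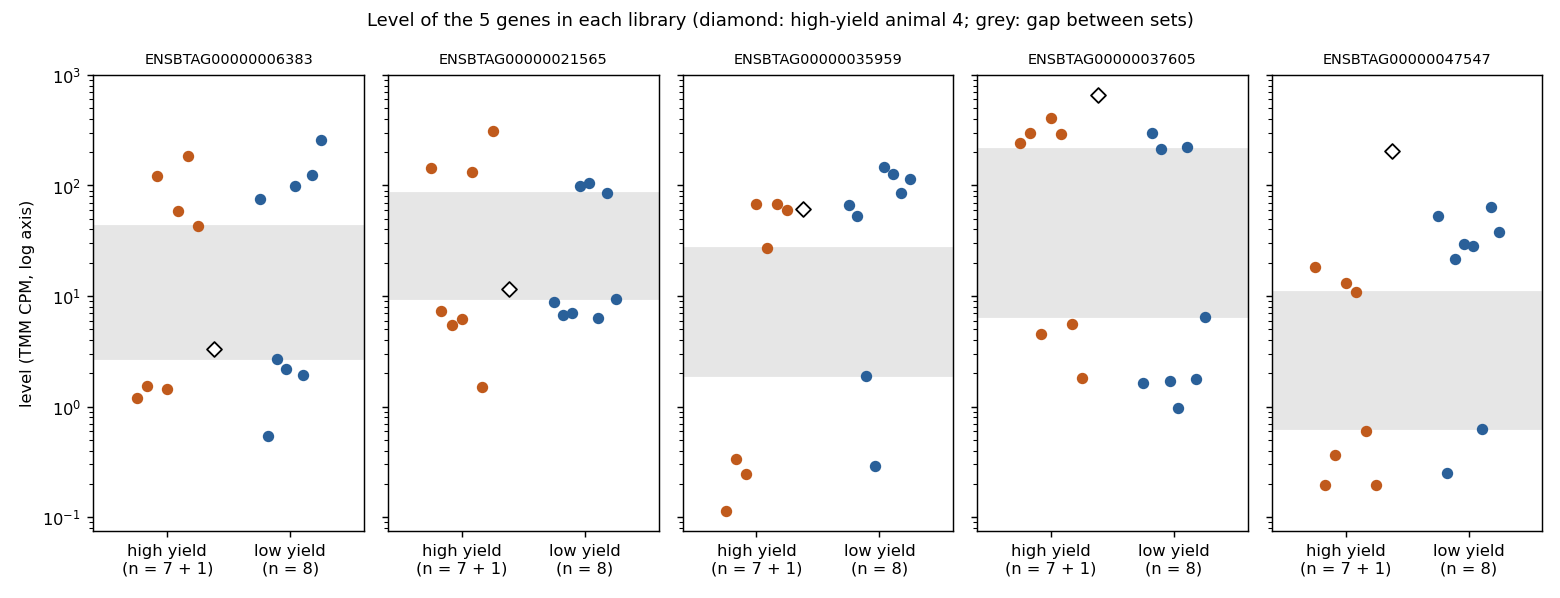
Level of each of the 5 genes in each library, in TMM CPM on a log axis, by milk protein yield group. Points are libraries, the diamond is high-yield animal 4, and the grey band runs from the highest library of the lower set to the lowest of the upper set. In all 5 genes both yield groups have libraries above and below the band, and the diamond lies inside it for ENSBTAG00000006383 and ENSBTAG00000021565.

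ENSBTAG00000037605 had the widest gap of all genes in the files, over the 15 libraries and with at least 3 on each side. Its upper set held 7 libraries, with 242 CPM in high-yield animal 1, 299 in animal 2, 406 in animal 5 and 294 in animal 6, and 301, 213 and 224 CPM in low-yield animals 2, 3 and 6. These 7 levels lay close together, within 1.91-fold. The lower set held 8 libraries, with 4.49, 5.59 and 1.81 CPM in high-yield animals 3, 7 and 8. The rest were low-yield animals 1, 4, 5, 7 and 8, at 1.64, 1.71, 0.977, 1.79 and 6.40 CPM. The step from the highest of the lower to the lowest of the upper set was 33.2-fold (95% counting interval 28.7 to 38.7, from 184 and 6113 counts). The widest step between neighbours inside either set was 1.35-fold in the upper and 2.48-fold in the lower. In the lower set 3 libraries, high-yield animals 3 and 7 and low-yield animal 8, stood above the rest at 4.49 to 6.40 CPM, and all 3 are among the 7 with the lower share of non-unique alignments. The other libraries of that kind in the lower set, low-yield animals 5 and 7, had 0.977 and 1.79 CPM, and the part of this share was not tested.

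ENSBTAG00000006383 divided the libraries almost evenly, 8 above and 7 below. The upper set held high-yield animals 3, 6, 7 and 8 at 122, 59.1, 183 and 42.8 CPM. It also held low-yield animals 1, 5, 7 and 8 at 75.4, 99.8, 123 and 259 CPM. Unlike in ENSBTAG00000037605, the upper levels ran through a 6.05-fold range without a wide step, none being over 1.49-fold. The lower set held high-yield animals 1, 2 and 5 at 1.20, 1.55 and 1.45 CPM and low-yield animals 2, 3, 4 and 6 at 0.537, 2.71, 2.17 and 1.93 CPM. Between the sets lay a 15.8-fold step (95% counting interval 12.5 to 20.1, from 78 and 1325 counts).

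ENSBTAG00000035959 was in the upper set in 10 of 15 libraries, the most of the 5 genes. High-yield animals 5, 6, 7 and 8 had 68.1, 27.4, 68.5 and 59.7 CPM. Low-yield animals 1, 2, 5, 6, 7 and 8 had 66.5, 53.1, 147, 127, 84.7 and 114 CPM. Its lower set held very few counts: high-yield animals 1, 2 and 3 had 4, 12 and 6 counts (0.114, 0.338 and 0.245 CPM) and low-yield animal 4 had 7 (0.292 CPM). Low-yield animal 3 had 54 counts, or 1.88 CPM, which is 5.56 times the next lower library and 14.6-fold below the lowest of the upper set (95% counting interval 11.1 to 19.6). This animal thus stood by itself, nearer to the lower set. Without it the gap of ENSBTAG00000035959 was 62.8-fold in place of 13.9-fold, and without high-yield animal 6, the lowest of the upper set, 26.9-fold (all on CPM + 0.1).

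ENSBTAG00000047547 had 9 libraries in its upper set. They were high-yield animals 1, 5 and 6 at 18.4, 13.2 and 11.0 CPM and low-yield animals 1, 3, 4, 5, 7 and 8 at 53.4, 21.8, 29.7, 28.2, 64.0 and 37.9 CPM. The 6 low-yield libraries of this set all stood above its 3 high-yield libraries, which is given as a description, since the set was formed from the same values. High-yield animal 4, given apart, goes against this order, as its 203 CPM lay above all the low-yield libraries. The lower set held 7, 9, 19 and 6 counts in high-yield animals 2, 3, 7 and 8 and 8 and 23 counts in low-yield animals 2 and 6, or 0.194 to 0.633 CPM. The step between the sets was 17.3-fold, with a wide 95% counting interval of 11.3 to 27.7, because its lower end rests on 23 counts.

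ENSBTAG00000021565 had the smallest gap and the smallest upper set, with 6 libraries. High-yield animals 1, 6 and 8 had 143, 131 and 308 CPM, and low-yield animals 4, 5 and 7 had 98.0, 106 and 85.9 CPM. Here the 3 high-yield libraries of the upper set stood above its 3 low-yield libraries, again as a description. Its lower set was far from 0, with 48 to 269 counts per library. Of these 9 libraries 8 lay between 5.50 and 9.36 CPM, and high-yield animal 7 lay 3.65-fold below them at 1.51 CPM. The step between the sets was 9.18-fold (95% counting interval 8.09 to 10.4, from 269 and 2689 counts).

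Lower levels of the 5 genes were thus low but counted. Over all lower sets a library held 4 to 269 counts of the gene, and 0 libraries were at 0. The smallest of these values, 4 counts of ENSBTAG00000035959 in high-yield animal 1, corresponds to 0.114 CPM with an exact Poisson interval of 0.0312 to 0.293 CPM (95%, counting error only). Median levels of the upper and lower sets differed 163.5-fold for ENSBTAG00000037605, 71.5-fold for ENSBTAG00000006383, 234.3-fold for ENSBTAG00000035959, 91.0-fold for ENSBTAG00000047547 and 17.5-fold for ENSBTAG00000021565. Alignments to more than 1 place were tallied apart by the authors' counting and enter none of these levels.

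High-yield animal 4 was close to the lower set for 2 of the genes and in or above the upper set for 3. It had 3.29 CPM of ENSBTAG00000006383, 1.21 times the highest library of the lower set and 13.0-fold below the lowest of the upper set. For ENSBTAG00000021565 it had 11.6 CPM, 1.24 times the highest of the lower set and 7.40-fold below the upper set. Its 60.9 CPM of ENSBTAG00000035959 lay within the upper set. For ENSBTAG00000037605 it had 654 CPM, 1.61 times the highest of the other 15 libraries, and for ENSBTAG00000047547 it had 203 CPM, 3.18 times the highest and 7.21 times the median of the upper set. Put on the nearer side of each gap, it had the same 5 sides as 1 of the other libraries, that of high-yield animal 5. With this library included the gap of ENSBTAG00000021565 was 7.34-fold, below the 8-fold used to choose it, and the other 4 genes stayed above 8-fold. The part that the make-up of this library has in its levels was not tested.

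**Figure D2:**
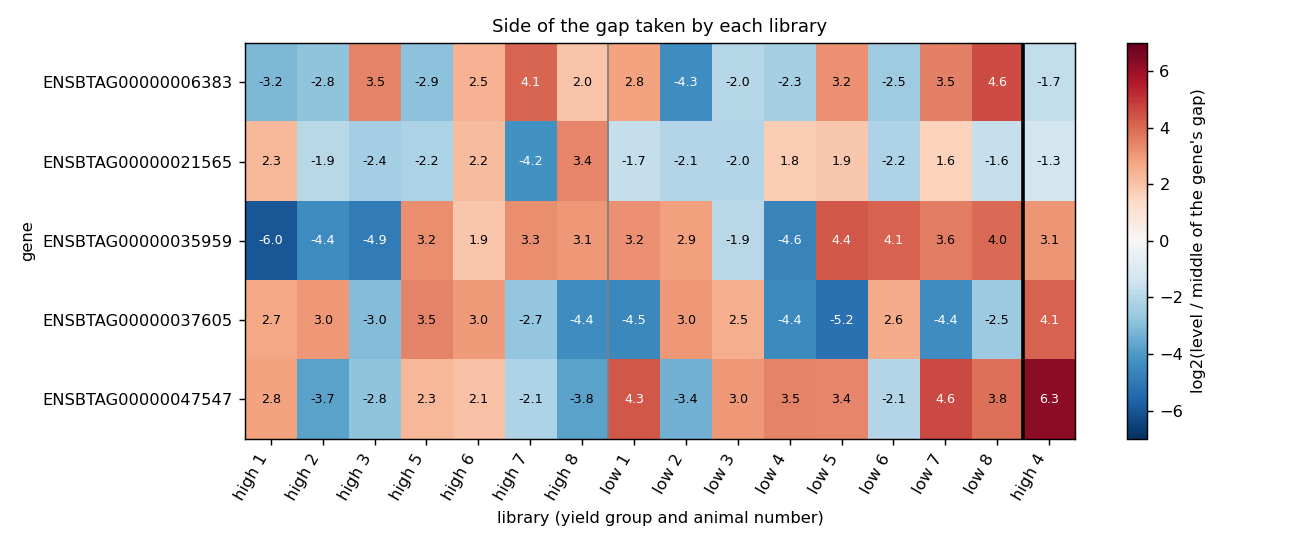
Side of the gap on which each library lay, for the 5 genes (rows) and 16 libraries (columns, with high-yield animal 4 last). Colour and number give log2 of the level over the middle of that gene's gap, red above and blue below. High-yield animal 6 is red in all 5 rows, and no column of the first 15 is blue in all 5.

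The 5 genes did not pick out the same animals. Of the 15 libraries, 2 were in the upper set of 1 gene, 5 in that of 2 genes, 5 in that of 3 and 2 in that of 4. High-yield animal 6 was in the upper set of all 5 genes, and 0 libraries were in none. Of 32 possible combinations of sides 12 occurred, where 15 libraries could show at most 15. How many matching or opposite pairs of libraries unrelated sides would give was not worked out. The pairs with the same combination were low-yield animals 1 and 8, low-yield animals 2 and 6, and low-yield animals 5 and 7, or 3 of 105 pairs of libraries, while 4 pairs lay on opposite sides for every gene.

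Among the 10 pairs of genes, ENSBTAG00000006383 and ENSBTAG00000035959 shared the most libraries. They lay on the same side in 11 of 15. Both were in the upper set in 7 libraries, which is 87.5% of the upper set of the former and 70.0% of that of the latter. In the upper set of the former the unshared library was high-yield animal 3, at 122 CPM of ENSBTAG00000006383 and 0.245 CPM of ENSBTAG00000035959. The upper set of ENSBTAG00000035959 held 10 of all 15 libraries, and the sides were opposite in 4. ENSBTAG00000021565 and ENSBTAG00000047547 lay on the same side in 10 libraries and on opposite sides in 5. They shared 5 upper ones, 83.3% of the upper set of the former and 55.6% of that of the latter. In the upper set of the former the unshared library was high-yield animal 8. The upper set of ENSBTAG00000047547 held 9 of all 15 libraries.

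ENSBTAG00000006383 and ENSBTAG00000037605 lay on opposite sides in 13 of 15 libraries. They shared high-yield animal 6 in the upper set, or 12.5% and 14.3% of their upper sets, and low-yield animal 4 was in both lower sets. Of all 15 libraries, 8 were in the upper set of the former and 7 in that of the latter. High-yield animal 4, given apart, had 3.29 CPM of the former, inside its gap and nearer the lower set. For the latter it lay above the upper set. This library also lay on opposite sides for both pairs described above as sharing libraries. It was nearer the lower set for ENSBTAG00000006383 and ENSBTAG00000021565, and in or above the upper set for ENSBTAG00000035959 and ENSBTAG00000047547. With 12197 genes holding a count it stood apart from the others, and no weight is placed on its sides. The other 7 pairs of genes lay on the same side in 6 to 9 of 15 libraries. No correlation is given, since the levels fall into separate sets, and with 10 pairs looked at the extreme ones were not tested.

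**Figure D3:**
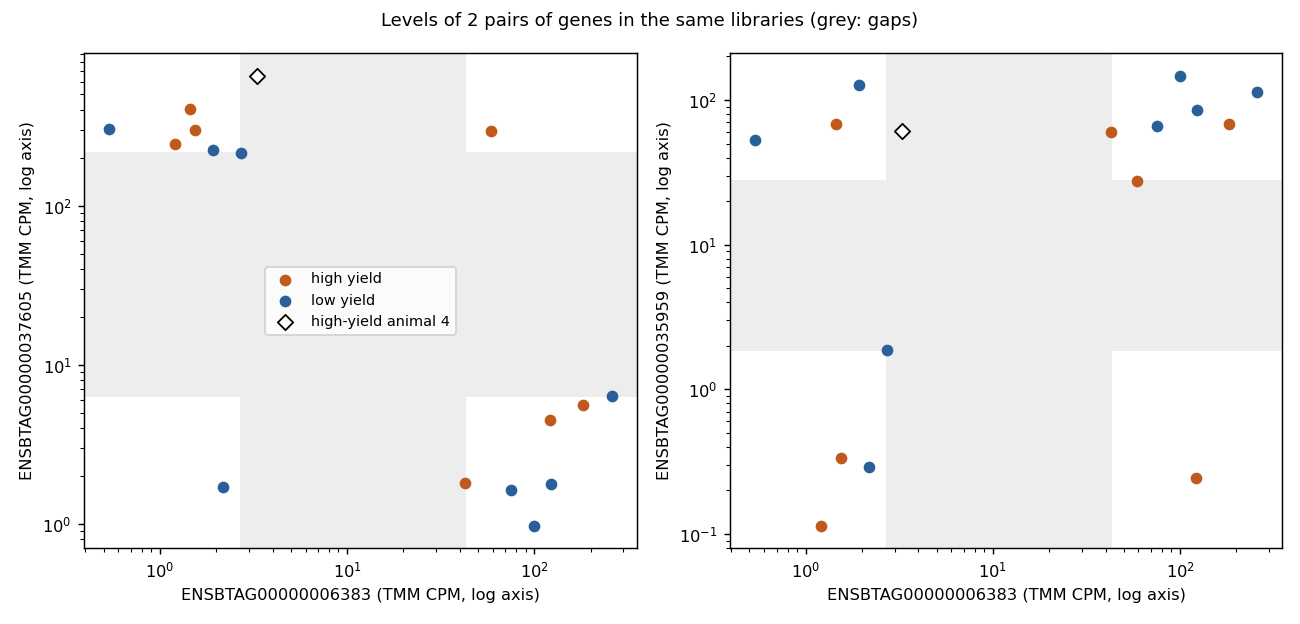
Levels of ENSBTAG00000006383 (horizontal) against ENSBTAG00000037605 (left panel) and ENSBTAG00000035959 (right panel) in the same libraries, in TMM CPM on log axes. Grey bands are the gaps and the diamond is high-yield animal 4. On the left 13 of the 15 libraries used lie in the upper left or lower right corner, and on the right 7 lie in the upper right corner and 4 in the lower left.

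The sets also differed in how they fell over the shares of non-unique alignments. The upper set of ENSBTAG00000006383 held 6 of the 7 libraries with the lower share and 2 of the 8 with the higher share. For ENSBTAG00000037605 the numbers were 2 of 7 and 5 of 8, for ENSBTAG00000035959 6 of 7 and 4 of 8, for ENSBTAG00000021565 3 of 7 and 3 of 8, and for ENSBTAG00000047547 4 of 7 and 5 of 8. Each gene thus had libraries of both kinds on both sides of its gap, and the part of the share in the levels was not tested. Depth did not separate the sets: for ENSBTAG00000037605 the totals ran from 27425905 to 39793845 counts in the upper and from 23727368 to 37116647 in the lower set, and the ranges overlapped likewise in the other 4 genes.

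A gap of this size was rare. Of 18880 genes with a count in the 15 libraries, 11 had a gap of at least 8-fold on CPM + 0.1, or 0.0583%, and these include the 5 described, which were chosen so. At 4-fold there were 26 such genes and at 2-fold 136. Just inside the limit were ENSBTAG00000021565 at 9.09-fold and another gene at 8.67-fold, and just outside it were genes at 6.43-fold and 6.21-fold. The other 6 genes past the limit had few reads: the lowest library of their upper sets held 35 to 113 counts, against 330 to 6113 for the 5 genes. In 5 of these 6 the lower set included libraries at 0, whereas 0 of the 5 genes had such a library. Genes with so few counts reach 0 more readily, so this contrast cannot be told apart from the read level. The 8-fold limit alone does not part the 5 genes from these 6.

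**Figure D4:**
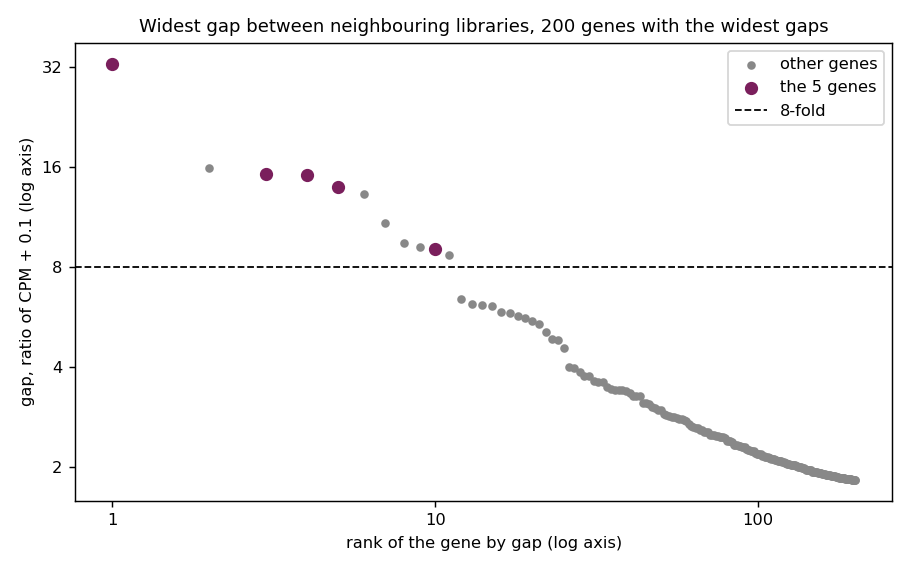
The genes with the widest gaps, ranked, with the gap as a ratio of CPM + 0.1 between neighbouring libraries, both axes logarithmic. Large points are the 5 genes and the dashed line is the 8-fold limit. ENSBTAG00000037605 lies first at 32.7-fold, and 11 genes lie above the line.

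No other gene divided the animals by 2-fold or more in the way that any of the 5 did. Over the 15 libraries, 0 of the other 24611 genes had the upper set of one of the 5 genes above all other libraries by 2-fold or more, and 0 had it below. With any step at all, 13 genes had the division of ENSBTAG00000037605 in the same direction, the widest at 1.36-fold, and 6 in the opposite direction. For ENSBTAG00000006383 these were 7 and 3 genes, the widest 1.06-fold in the same and 1.38-fold in the opposite direction, and for the other 3 genes 1 to 2. Among 131 other genes with a gap of at least 2-fold of their own, the most like the 5 had 11 or 12 of the 15 libraries on the same side. In reverse, the most unlike had 2 of 15 on the same side for each of 4 genes, and 4 of 15 for ENSBTAG00000047547. This last comparison was added after the data had been seen.

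Both yield groups had libraries in every upper and every lower set, and none of the 5 genes was called between high and low milk protein yield. All 5 passed the filter on low counts (at least 10 counts in at least 3 libraries, read without regard to yield). In edgeR's quasi-likelihood test with Benjamini-Hochberg adjustment, 0 of the 5 had an adjusted p below 0.05, as had 0 of all 13920 genes tested (0%). At an unadjusted p below 0.05 there were 0 of the 5 and 383 of all genes (2.75%). Without high-yield animal 4 edgeR called 0 of 13885 genes (0%). DESeq2 called 2 of all genes (0.0144%) and had 514 at an unadjusted p below 0.05 (3.69%), none of them among the 5. Of the 7 high-yield libraries without animal 4, 4 were in the upper set of ENSBTAG00000006383, 3 of ENSBTAG00000021565, 4 of ENSBTAG00000035959, 4 of ENSBTAG00000037605 and 3 of ENSBTAG00000047547. Of the 8 low-yield libraries these were 4, 3, 6, 3 and 6 in the same order.

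Of the libraries left out 1 at a time, high-yield animal 4 moved the edgeR difference of ENSBTAG00000047547 the most. The mean was 30.9 ± 70.0 CPM at high yield and 29.5 ± 22.6 CPM at low yield (SD, n = 8 each). The log2 fold change, high minus low, was 0.07 (SE 1.20, 95% confidence interval -2.46 to 2.59, adjusted p = 0.998 in edgeR), whereas the difference in mean log2(CPM + 1) had the other sign, -1.43 (exact permutation p = 0.270). Without high-yield animal 4, which alone had 203 CPM, the high-yield mean was 6.27 ± 7.73 CPM (SD, n = 7) and the log2 fold change -2.22 (SE 1.06, interval -4.46 to 0.01). The difference in mean log2(CPM + 1) was then -2.15, of the same sign as with all libraries (exact permutation p = 0.0726). The unadjusted p in edgeR was 0.0513 and the adjusted p 0.859, against a background of 546 of 13885 genes, 3.93%, at an unadjusted p below 0.05. DESeq2 without this animal gave -2.21 with an unadjusted p of 0.037 and an adjusted p of 0.883, where 658 genes (4.74%) were at an unadjusted p below 0.05 and 2 (0.0144%) were called.

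For ENSBTAG00000037605 the high-yield mean was 238 ± 231 CPM and the low-yield mean 93.8 ± 129 CPM (SD, n = 8 each). High minus low, this was 1.36 on the log2 scale in edgeR (SE 1.27, interval -1.30 to 4.02, adjusted p = 0.987), and 0.95 without high-yield animal 4. The exact permutation test compared mean log2(CPM + 1) instead. That difference was 2.13 (exact permutation p = 0.151), and 1.67 without high-yield animal 4 (exact permutation p = 0.323). ENSBTAG00000035959 went the other way, with 35.7 ± 32.0 CPM at high and 74.2 ± 54.7 CPM at low yield (SD, n = 8 each). Its difference was -1.07 on the log2 scale (SE 1.07, interval -3.32 to 1.17). Its adjusted p in edgeR was 0.987, and without high-yield animal 4 the log2 fold change was -1.23. Its difference in mean log2(CPM + 1) was -1.42 (exact permutation p = 0.288), and -1.74 without that animal (exact permutation p = 0.254). ENSBTAG00000021565 averaged 76.8 ± 111 CPM at high and 41.0 ± 46.4 CPM at low yield (SD, n = 8 each). On the log2 scale it differed by 0.88 (SE 0.992, interval -1.21 to 2.96). The adjusted p was 0.987 in edgeR, with a log2 fold change of 1.05 without high-yield animal 4. In mean log2(CPM + 1) the difference was 0.096 (exact permutation p = 0.905), and 0.218 without that animal (exact permutation p = 0.849). Without high-yield animal 8, the highest library at 308 CPM, the difference in edgeR was 0.073. ENSBTAG00000006383 averaged 51.7 ± 67.8 CPM at high and 70.6 ± 91.1 CPM at low yield (SD, n = 8 each). The log2 difference was -0.49 (SE 1.18, interval -2.97 to 1.98), with an adjusted p of 0.987 in edgeR and an exact permutation p of 0.808. Without high-yield animal 4 it was -0.31 (exact permutation p = 0.988).

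Within each yield group the levels of all 5 genes spanned the gap. The SE of a log2 fold change was 0.992 to 1.27 in edgeR for the 5 genes, against a median of 0.253 over all genes tested. Their median log2 fold change was 0.07, against -0.01 over all genes, and their median size 0.88 against 0.17. Without high-yield animal 4 these were -0.31 against -0.02, and 1.05 against 0.15. The 5 genes were chosen for a wide gap between animals, which by itself gives large SEs and large fold changes of either sign. These contrasts with all genes are therefore not read as a difference between yield groups. The 2 kinds of library by non-unique share both leave out high-yield animal 4, without which ENSBTAG00000047547 had a log2 fold change of -2.22. Within them the log2 fold change of ENSBTAG00000047547 was -1.72 (SE 1.28) in the higher and -3.03 (SE 1.42) in the lower set. In the same order it was 1.10 and 0.39 for ENSBTAG00000037605, -0.62 and -1.63 for ENSBTAG00000035959, 1.95 and -0.18 for ENSBTAG00000021565, and -0.83 and 0.01 for ENSBTAG00000006383. None of these passed an adjusted p of 0.05 in edgeR.

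**Figure D5:**
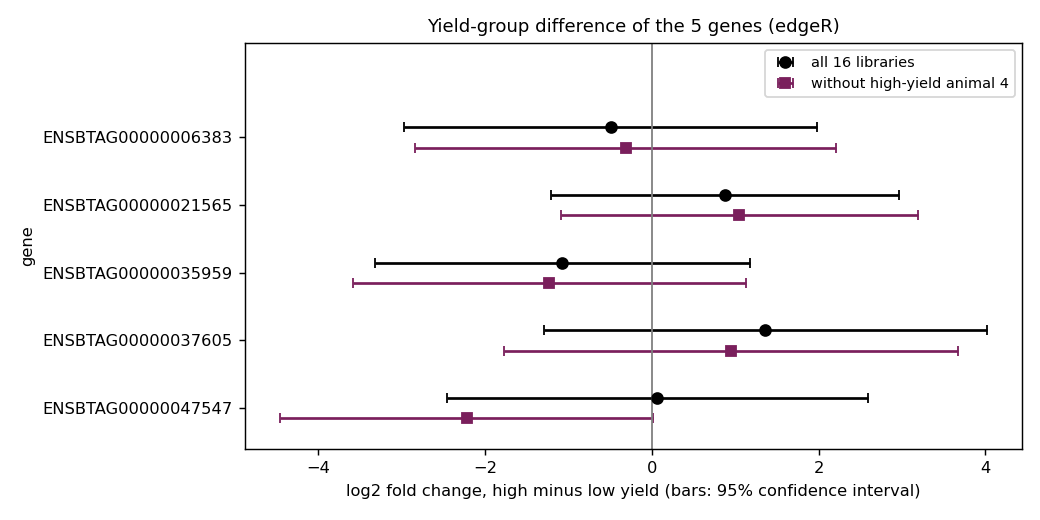
Log2 fold change, high minus low milk protein yield, of the 5 genes in edgeR, with 95% confidence intervals, for all 16 libraries (circles) and without high-yield animal 4 (squares). All intervals include 0, and the point of ENSBTAG00000047547 moves from 0.07 to -2.22 when that library is left out.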

How the data were processed

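The authors deposited raw read counts for each Ensembl gene identifier, 1 file per library, without normalization. TopHat2 2.1.1, SAMtools 1.4 and HTSeq with assembly UMD3.1 were used, per the submitters' processing notes. The sources used here do not give HTSeq's version and strand setting or the annotation's release. The 5 summary entries of each file were kept out of library totals; 18.3% to 23.6% of alignments per library lay in no gene and 0.556% to 0.887% were ambiguous.

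CPM were computed with TMM factors of all 16 libraries (edgeR 4.0.16, R 4.3.3). The gap is the widest ratio of neighbouring libraries on CPM + 0.1, with at least 3 on each side, over 15 libraries; plain ratios in CPM carry an exact binomial counting interval, which covers counting error only. Yield groups were compared with edgeR's quasi-likelihood test and Benjamini-Hochberg adjustment, and with exact two-sided permutation tests of log2(CPM + 1) over 12870 splits, or 6435 without high-yield animal 4 (smallest possible p 0.0001554 for each). The filter asked for 3 libraries rather than the group size of 8, so that genes present in few animals are kept. The 5 genes were all named; other genes were to be named only with a symbol, so none is. The genes, lists and tests were chosen with earlier results of these data known. On simulated data for the 13920 genes of the yield comparison, edgeR found 12.0% of the changes at 1.5-fold, 46.0% at 2-fold, 88.0% at 4-fold and 94.0% at 8-fold, with 6 false calls. These shares are for genes at large and do not apply to the 5 genes, whose SEs are larger. No 2 libraries agreed within sampling noise, as chi-square per degree of freedom was at least 30.0 in all 120 pairs. DESeq2 1.42.0 and the other alternatives are given in the closing section. Lists of blood cell markers fixed by symbol could not be scored.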

Additional observations from a re-analysis of the deposited data

How the results depend on the processing

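Each of the 5 genes divided the 15 libraries in the same way under every scaling and pseudocount tried. The division was also the same with each library left out. CPM were not recomputed for this, so a gap could only stay or widen, and the leave-out ranges do not test it. Gaps with 1 library left out ran from 15.2 to 21.0 for ENSBTAG00000006383, 9.09 to 10.4 for ENSBTAG00000021565, 13.9 to 62.8 for ENSBTAG00000035959, 32.7 to 37.4 for ENSBTAG00000037605 and 15.1 to 18.1 for ENSBTAG00000047547. On CPM + 1 the gap was 11.8 for ENSBTAG00000006383, 9.86 for ENSBTAG00000035959 and 7.32, below 8-fold, for ENSBTAG00000047547. It was 7.34 for ENSBTAG00000021565 with all 16 libraries. The number of genes past the limit was 11, and 26 at 4-fold, 1 at 16-fold and 4 on CPM + 1.

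No setting called any of the 5 genes between yield groups. The log2 fold change changed sign for ENSBTAG00000047547, to -0.24 with library totals and -2.21 with DESeq2 without high-yield animal 4 (added after seeing the data). It was -1.72 and -3.03 within the higher and lower non-unique set, which both leave out high-yield animal 4 as well. With 1 library left out it ran from -2.22 to 0.35, and was below 0 without high-yield animal 4, low-yield animal 2 or low-yield animal 6. For ENSBTAG00000006383 it was 0.0091 within the lower set and ran from -1.13 to 0.19, above 0 without low-yield animal 8; the difference in mean log2(CPM + 1) was 0.027 without high-yield animal 4. ENSBTAG00000021565 gave -0.18 within the lower set, and 0.073 to 1.24 with 1 library left out, the lowest without high-yield animal 8. The ranges for ENSBTAG00000035959 and ENSBTAG00000037605 were -1.28 to -0.86 and 0.95 to 1.90. Genes called over the whole table numbered 0, 2 with DESeq2 (also 2 without high-yield animal 4), 383 at an unadjusted p below 0.05, and 0 to 1 with a library left out, the 1 being without high-yield animal 1 or 3.

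Replicate numbers are shared by the yield groups, but 1 of 8 same-numbered pairs had a correlation of deviations over 0.1 (-0.53 to 0.22), and 0 of 8 high-yield libraries correlated best with their own number. With the replicate number as a block edgeR still called 0 genes, and the log2 fold change of ENSBTAG00000047547 was -1.97 and that of ENSBTAG00000021565 0.027.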
